A study of Mus musculus with 5 samples.

Results

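Splicing regulators were followed in mouse atria as 39 genes, taken by symbol from the authors' deposited table of 14927 genes: 10 SR protein genes (Srsf1 to Srsf7 and Srsf9 to Srsf11), 20 hnRNP genes (symbols that start with Hnrnp) and 9 tissue regulators (Rbm20, Rbm24, Rbfox1, Rbfox2, Mbnl1, Mbnl2, Celf1, Celf2 and Ptbp1). The selection also asked for the symbol Qk, which has no row there. That gene is listed as Qki and is described beside the 39 without being counted among them. All 39 passed the expression filter that left 16412 of 57186 genes, and none was dropped.

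Pre-mRNA splicing is steered by proteins that bind exons and introns next to splice sites. SR proteins carry domains rich in arginine and serine and mostly favour the inclusion of exons they bind, whereas many hnRNP proteins compete with them or repress exons. Heart muscle adds tissue regulators: RBM20 represses exons of titin and of calcium-handling genes, RBM24 supports muscle exons, RBFOX proteins bind the sequence UGCAUG, and MBNL and CELF proteins act in opposite directions as exons switch from the fetal to the adult form after birth. Many of these genes contain alternative exons of their own, through which they regulate their own transcripts and those of their relatives.

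The tested mice are heterozygous for the E990G change in MRC2, an endocytic collagen receptor (genotype MRC2 E990G-het, called het), and the others are wild type (WT). How the allele was made is not in the labels used here. The series describes 7 het and 8 WT animals aged 4 to 10 months. The libraries analysed here are het 5, het 6 and het 7 and WT 7 and WT 8, all of batch 2, each made from the snap-frozen atria of an animal by stranded polyA selection. Strain and sex are not in the labels used here, and p-values measure the spread between these libraries. With 3 against 2 libraries there are 10 possible splits. An exact two-sided permutation test that doubles the smaller tail thus cannot give a p below 0.2.

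Total expected counts, RSEM's estimate of reads per gene, ran from 17784601 to 28353091 per library, and the 39 genes took 0.628%, 0.650% and 0.646% of them in the het libraries and 0.565% and 0.597% in the WT libraries. The Y-linked gene Ddx3y had 938 counts in WT 7 and at most 3 in each of the others, and Xist had 22 counts in WT 7 and at least 6117 elsewhere. WT 7 thus had the counts of a male and the other libraries those of females. Fits below without WT 7 also leave out the only male, and the part of sex was not tested. Atrial cardiomyocyte markers (8 genes, among them Nppa, Myl7 and Ryr2) summed to 58965 to 65768 CPM (counts scaled to library size) in het and 83587 to 83774 CPM in WT. The 8 genes did not move as a set, since 1 was called higher and 2 lower (edgeR adjusted p under 0.05). Macrophage markers summed to 481 to 689 CPM in het and 405 to 443 CPM in WT, and erythroid markers to 2591 to 5276 CPM in het and 599 to 2228 CPM in WT. Skeletal muscle markers summed to 785 to 935 CPM in het and 1329 to 1454 CPM in WT. The sums of fibroblast, endothelial, smooth muscle, adipocyte and Schwann cell markers overlapped between the groups, and of the lung epithelial markers Sftpa1 and Sftpc were at 0 in every library. The part of these differences in the results below was not tested. In tissue RNA, fewer cells of a type and less RNA per cell cannot be told apart.

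Of the 39 genes, Rbfox1 rose in het atria and none fell (edgeR quasi-likelihood test, Benjamini-Hochberg adjusted p under 0.05 over 16412 genes). Across all genes tested 2.99% were called higher and 2.66% lower, so 1 gene of 39 is near the background. At an unadjusted p under 0.05 stood 5 of the 39, namely Rbfox1, Mbnl2, Mbnl1 and Hnrnpul2 on the higher side and Hnrnpa0 on the lower side, against 24.7% of all genes tested. The median log2 fold change of het over WT was 0.09 for the 39 genes and -0.001 for all genes. By role it was 0.24 for the 9 tissue regulators, 0.08 for the 20 hnRNP genes and -0.03 for the 10 SR protein genes. In 14 of the 39 genes every het library stood above both WT libraries, where 21.1% of all genes did. In 3 every het library stood below both, where again 21.1% of all genes did. The other 22 overlapped. These counts are by CPM, and the separation depended on the scale. By TPM, which also corrects for transcript length, the 3 lower genes (Srsf4, Hnrnpa0 and Hnrnpl) overlapped. So did Srsf1 and Hnrnph1, which lay above WT by CPM. Other genes that overlapped by CPM, among them Celf2, Ptbp1 and Hnrnpa2b1, lay above WT in every het library by TPM.

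**Figure D1:**
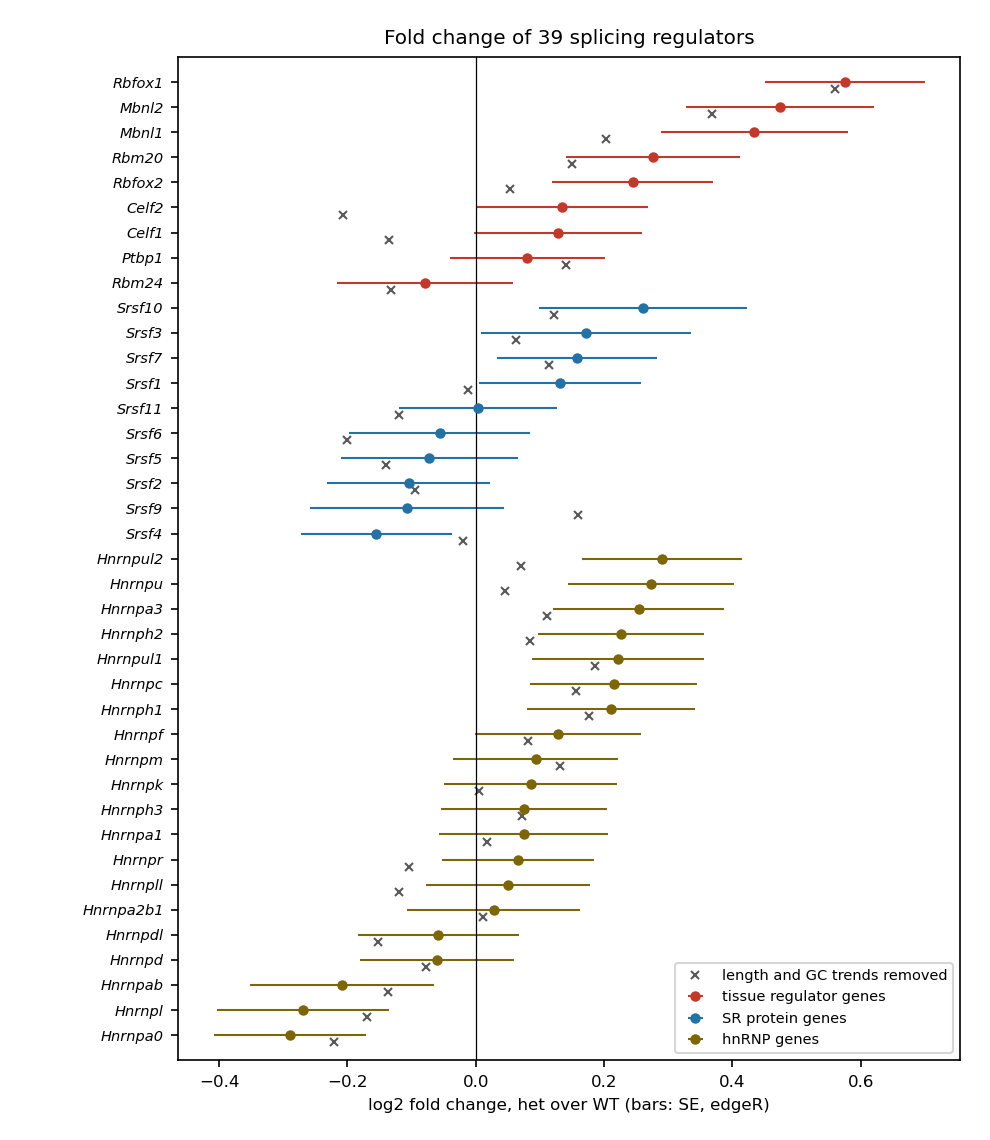
Log2 fold change of het over WT for the 39 genes by role (points, edgeR, bars are SE) and the same with per-library length and GC trends removed (crosses). Rbfox1 lies farthest to the right at 0.58, and the crosses of the longer genes such as Mbnl1, Rbfox2 and Celf2 lie to the left of their points.

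Rbfox1, an RNA-binding regulator of exons in brain, heart and skeletal muscle, had 45.5, 48.3 and 46.5 CPM in the het libraries, against 31.6 and 31.2 CPM in the WT libraries. Every het value was above both WT values, and the values within each group lay close together. The log2 fold change was 0.58 (SE 0.12, edgeR adjusted p = 0.0308). Per length, the gene had 28.8 ± 1.5 TPM in het (SD, n = 3) and 16.1 ± 1.3 TPM in WT (SD, n = 2), a scale that corrects for transcript length and library total. The fold was 0.56 with length and GC trends removed, where the edgeR adjusted p was 0.0704. With each library left out it ran from 0.55 to 0.60, and the call was lost without het 5, het 6, het 7 or WT 7 and kept without WT 8 (edgeR adjusted p from 0.0441 to 0.0965). In the authors' deposited table its log2 fold change was 1.11 (deposited interval 0.31 to 1.90), with a p of 0.00351 and an adjusted p of 0.351. The libraries in that fit are not given in the sources used here, and it compares atria of the same series, so it is no separate evidence. Of the 39 genes, 3 had an unadjusted p under 0.05 in the authors' deposited table, against 5.6% of all its genes. Beside Rbfox1 these were Srsf11 and Celf1, with log2 fold changes of 0.73 and 0.58 in the authors' deposited table. Over the 39 genes the median log2 fold change in the authors' deposited table was -0.09 with 11 genes above 0, against 0.09 with 28 above 0 in the edgeR fit. Rbfox2 stood at -0.35 and Mbnl2 at 0.03 in the authors' deposited table.

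Rbfox2, its widely expressed relative, had 149, 141 and 155 CPM in het and 122 and 128 CPM in WT. The groups did not overlap, yet the log2 fold change of 0.24 (SE 0.13, edgeR adjusted p = 0.252) did not pass, and it was 0.05 with length and GC trends removed. Both genes carry a pair of short neighbouring exons near the 3' end of the coding sequence, of 40 and 43 bases, of which a transcript usually holds either. In mouse and human Rbfox1 the 40-base exon is known as the brain form and the 43-base exon as the muscle form. Both lengths leave a remainder of 1 when divided by 3, so exchanging the exons keeps the reading frame of what follows. The sequences are shown because inclusion of these exons is the readout that follows. Capitals mark the bases that differ between the paralogues at the same position.
Rbfox1 40-base exon: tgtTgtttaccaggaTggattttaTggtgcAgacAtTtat
Rbfox2 40-base exon: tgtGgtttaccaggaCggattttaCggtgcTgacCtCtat
Rbfox1 43-base exon: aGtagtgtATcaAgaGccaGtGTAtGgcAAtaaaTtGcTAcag
Rbfox2 43-base exon: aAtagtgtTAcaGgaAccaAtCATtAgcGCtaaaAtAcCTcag
The Rbfox1 exons lie on the plus strand at chr16:7363865-7363904 and chr16:7369801-7369843, and the Rbfox2 exons on the minus strand at chr15:77094451-77094490 and chr15:77091812-77091854 (GENCODE M21, GRCm38). All 4 are coding. The 40-base exons differ at 6 positions (85% identity) and the 43-base exons at 16 (62.8% identity).

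Inclusion is given here as the share of expected counts in the gene's transcripts that hold an exon, over those plus the transcripts whose intron spans it. Transcripts without a match in GENCODE M21 do not enter it. The Rbfox1 40-base exon stood at 51.6%, 59.6% and 59.5% in het and at 65.1% and 81.3% in WT. Its 43-base neighbour stood at 48.4%, 40.4% and 40.5% in het and at 34.9% and 18.7% in WT, the mirror image of the same transcripts. The groups did not overlap, and WT 8 was the farthest from the others. With a mean of 599 expected counts over the 5 libraries, this pair had the fewest counts of the printed exons. A large Rbfox1 transcript without a GENCODE M21 match is left out of these values. It took 36.3% ± 10.7 of the gene's counts in het (SD, n = 3) and 31.3% ± 4.6 in WT (SD, n = 2). Its share overlapped between groups and ran from 26.0% to 47.4% within het. The Rbfox1 values thus describe only the matched part of the gene's counts. The log2 ratio of inclusion to skipping differed by 1.10 for the 43-base exon (SE 0.49, limma adjusted p = 0.408), which did not pass. It was 1.71 without WT 7 and 0.50 without WT 8, and not called in either case. In Rbfox2 the 40-base exon was the main form, at 88.5%, 88.8% and 87.3% in het and 91.9% and 94.8% in WT. Its log2 ratio differed by -0.94 (SE 0.28, limma adjusted p = 0.265), and by -1.29 without WT 7 and -0.60 without WT 8, again with no call. The Rbfox2 43-base exon stood at 6.29%, 5.05% and 6.90% in het and 4.53% and 3.50% in WT. In both genes the 43-base exon was thus higher and the 40-base exon lower in every het library than in both WT libraries, without passing the test.

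**Figure D2:**
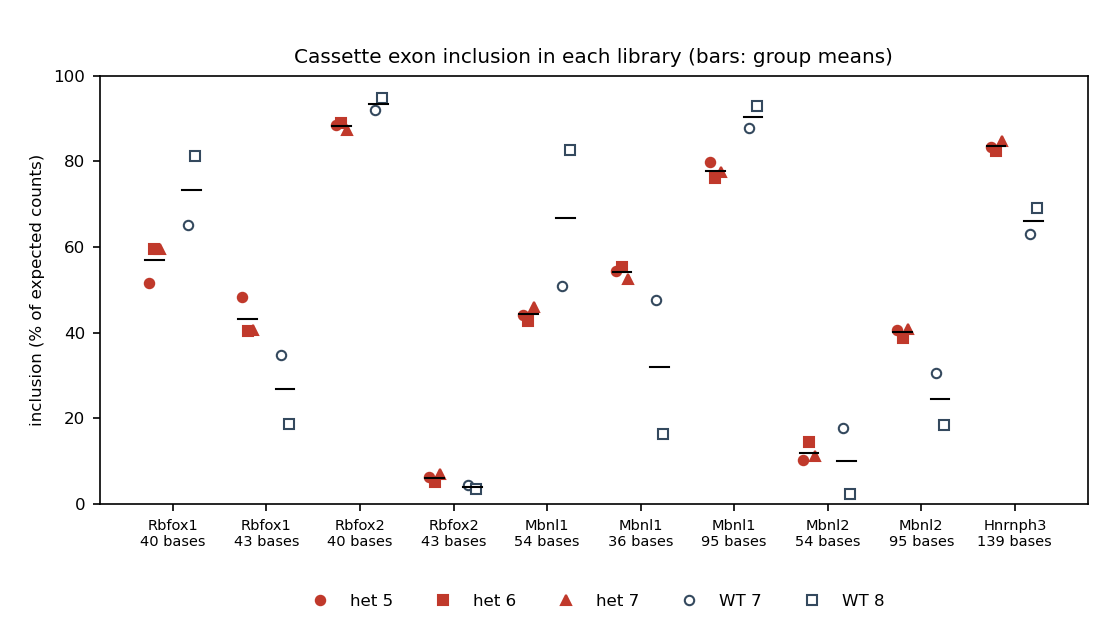
Inclusion of the coding exons shown in the text for Rbfox1, Rbfox2, Mbnl1, Mbnl2 and Hnrnph3 (percent of expected counts in spanning transcripts), with het libraries filled, WT libraries open and bars at group means. Het libraries cluster within a few percentage points of each other in most exons, while WT 8 lies far from WT 7 in the Mbnl1 36- and 54-base exons.

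The muscleblind genes Mbnl1 and Mbnl2 encode zinc finger proteins that promote adult exon choices in muscle and heart. Mbnl2 had 207, 223 and 205 CPM in het and 132 and 173 CPM in WT. Mbnl1 had 168, 183 and 149 CPM in het and 109.9 and 137 CPM in WT. Neither overlapped between groups, and WT 7 was the lowest library for both. The log2 fold change was 0.47 for Mbnl2 (SE 0.15, edgeR adjusted p = 0.0712). For Mbnl1 it was 0.43 (SE 0.15, edgeR adjusted p = 0.0897). With WT 7 left out the log2 fold change was 0.29 for each (edgeR adjusted p = 0.267 for Mbnl2 and 0.311 for Mbnl1). With WT 8 left out they were 0.70 and 0.61, and both were called (edgeR adjusted p = 0.0277 for Mbnl2 and 0.0456 for Mbnl1). Removing length and GC trends gave 0.37 for Mbnl2 and 0.20 for Mbnl1.

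Mbnl1 and Mbnl2 share a 54-base exon, which in Mbnl1 promotes location in the nucleus, is a feature of the fetal heart and is repressed by MBNL proteins themselves. They also share a 95-base exon nearer the 3' end, and a 36-base exon lies just before it in Mbnl1. These exons are shown because the transcripts of the pair differed more between libraries than those of most of the 39 genes. Capitals mark bases that differ between the paralogues, and in the 36-base exon the RBFOX motif TGCATG.
Mbnl1 54-base exon: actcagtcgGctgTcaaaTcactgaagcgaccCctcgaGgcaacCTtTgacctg
Mbnl2 54-base exon: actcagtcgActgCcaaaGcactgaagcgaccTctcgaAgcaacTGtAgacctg
Mbnl1 36-base exon: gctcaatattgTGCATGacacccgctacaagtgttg
Mbnl1 95-base exon: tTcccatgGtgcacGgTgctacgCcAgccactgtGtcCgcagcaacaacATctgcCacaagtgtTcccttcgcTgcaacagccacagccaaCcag
Mbnl2 95-base exon: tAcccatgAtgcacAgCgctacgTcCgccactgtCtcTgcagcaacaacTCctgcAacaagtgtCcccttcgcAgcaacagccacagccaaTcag
The Mbnl1 exons lie at chr3:60614683-60614736, chr3:60621423-60621458 and chr3:60622146-60622240, and the Mbnl2 exons at chr14:120395712-120395765 and chr14:120404638-120404732 (all coding, plus strand, GENCODE M21, GRCm38). The paralogues differ at 8 positions of the 54-base exon (85.2% identity) and at 14 of the 95-base exon (85.3% identity). TGCATG occurred in 6 of 536 internal 36-base exons of the annotation (1.12%, on the sense strand and on either strand) and in 1 of the 11 exons printed here. A match in the letters is no evidence that a protein binds there.

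The Mbnl1 95-base exon was included at 79.9%, 76.0% and 77.4% in het and at 87.8% and 92.8% in WT. The het libraries were below both WT libraries, and the log2 ratio differed by -1.45 (SE 0.32, limma adjusted p = 0.209). In Mbnl2 the 95-base exon stood the other way round, at 40.7%, 38.8% and 41.0% in het and 30.6% and 18.5% in WT (log2 ratio 1.08, SE 0.33, limma adjusted p = 0.271). The sole Mbnl2 transcript counted as skipping it is Mbnl2-205, annotated as a processed transcript rather than as coding. This inclusion therefore mirrors the share of Mbnl2-205 given below and is no separate observation. The Mbnl1 54-base exon stood at 44.2%, 42.8% and 46.1% in het and 50.9% and 82.6% in WT. The Mbnl1 36-base exon stood at 54.4%, 55.2% and 52.5% in het and 47.6% and 16.4% in WT. In both of these exons WT 7 lay nearer to the het libraries than to WT 8. Mbnl1-214 holds the 54-base exon and lacks the 36-base exon, and Mbnl1-203 does the reverse. The inclusion of these exons thus follows largely the same transcripts and gives no separate observations. The Mbnl2 54-base exon overlapped between groups, at 10.2%, 14.5% and 11.1% in het and 17.8% and 2.32% in WT. With WT 7 left out, the limma test called the Mbnl1 54-, 36- and 95-base exons and the Mbnl2 95-base exon. That fit takes the spread of the lone WT 8 library from the het libraries. With WT 8 left out it called none of them.

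Rbm20, the cardiac repressor of titin exons, had 336, 384 and 332 CPM in het and 301 and 279 CPM in WT. Per length it had 102 ± 11 TPM in het (SD, n = 3) and 68.3 ± 13.5 TPM in WT (SD, n = 2). The groups did not overlap, and the log2 fold change of 0.28 (SE 0.14, edgeR adjusted p = 0.231) did not pass. It was 0.15 with length and GC trends removed. Most Rbm20 counts fell to the transcript Rbm20-201, which GENCODE M21 annotates as a target of nonsense-mediated decay, the pathway that degrades transcripts with an early stop codon. Its share of the gene's counts was 74.1%, 76.3% and 75.4% in het and 80.5% and 87.2% in WT (limma adjusted p = 0.419). Rbm20-201 holds a 46-base exon that the coding transcript Rbm20-203 skips. The exon is shown without capitals because nothing is marked in it, and it holds no TGCATG. Rbm20-201 is 4663 bases long and Rbm20-203 is 4892, so they also differ elsewhere. The inclusion below follows the shares of these transcripts, which need not rest on this exon.
Rbm20 46-base exon: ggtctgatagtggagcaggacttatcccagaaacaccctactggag
It lies at chr19:53852354-53852399 on the plus strand (GRCm38) and was included at 74.6%, 76.7% and 75.9% in het and 81.0% and 87.4% in WT. The log2 ratio differed by -0.79 (SE 0.25, limma adjusted p = 0.292). It was -1.14 without WT 7, where the exon was called (limma adjusted p = 0.0473), and -0.45 without WT 8.

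Rbm24, a muscle RNA-binding protein gene needed in the mouse heart for sarcomere assembly, had 219, 261 and 248 CPM in het and 241 and 271 CPM in WT, and the groups overlapped (log2 fold change -0.08, SE 0.14). A single transcript, Rbm24-201, held 98.9% ± 0.1 of its counts in het (SD, n = 3) and 99.2% ± 0.4 in WT (SD, n = 2). Celf1, which favours fetal exon choices, had 135, 136 and 149 CPM in het and 118 and 137 CPM in WT. Celf2, its relative, had 71.9, 77.9 and 67.8 CPM in het and 59.4 and 72.8 CPM in WT. Both overlapped between groups, with log2 fold changes of 0.13 for Celf1 and 0.14 for Celf2 (SE 0.13 each). With length and GC trends removed both turned negative, at -0.14 for Celf1 and -0.21 for Celf2, and Celf2 was at -0.0033 without WT 7. Ptbp1, the polypyrimidine tract binding repressor, had 61.6, 67.0 and 68.5 CPM in het and 62.8 and 61.4 CPM in WT (log2 fold change 0.08, SE 0.12). Qki, a regulator of muscle and heart splicing and of circular RNAs, had 398, 350.3 and 388 CPM in het and 219.7 and 344 CPM in WT. Its log2 fold change of 0.43 (SE 0.18, edgeR adjusted p = 0.171) did not pass. It was 0.12 with length and GC trends removed.

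**Figure D3:**
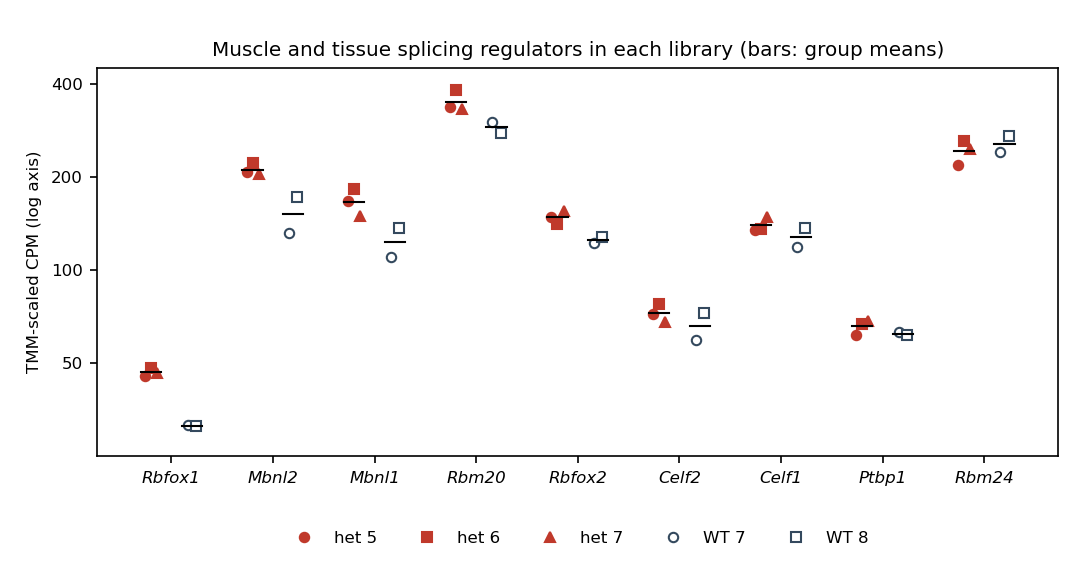
Level of the 9 tissue regulators in every library (TMM-scaled CPM, log axis), with het libraries filled, WT libraries open and bars at group means. Rbfox1, Mbnl2, Mbnl1, Rbm20 and Rbfox2 show no overlap between groups, with the widest gap relative to the spread in Rbfox1.

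Among SR protein genes none was called (edgeR), none of the 10 had an unadjusted p under 0.05 in the quasi-likelihood test, and log2 fold changes ran from -0.15 (Srsf4) to 0.26 (Srsf10). Srsf5 was the most abundant per length, with 282 ± 22 TPM in het (SD, n = 3) and 283 ± 40 TPM in WT (SD, n = 2). Srsf3, which also takes part in mRNA export, followed with 107 ± 12 TPM in het and 81.2 ± 11.7 TPM in WT. Srsf10, a repressor that depends on its phosphorylation state, had 77.9, 75.5 and 83.0 CPM in het and 52.6 and 79.2 CPM in WT. WT 8 lay among its het values, and the log2 fold change of 0.26 (SE 0.16) was -0.0036 without WT 7 and 0.60 without WT 8. Srsf3 behaved alike, with 235, 192 and 242 CPM in het and 167 and 229.6 CPM in WT, and a log2 fold change of 0.17 that turned to -0.038 without WT 7. Srsf7, which has a zinc knuckle, had 78.7, 70.8 and 71.1 CPM in het and 62.5 and 69.4 CPM in WT, without overlap (log2 fold change 0.16, SE 0.12). Srsf1, the founding member of the family, had 137, 141 and 143 CPM in het and 121 and 136 CPM in WT, so the groups did not overlap but nearly touched. Srsf4 was the SR protein gene in which het lay below, with 62.5, 59.8 and 62.0 CPM in het and 68.7 and 68.1 CPM in WT (log2 fold change -0.15, SE 0.12, edgeR adjusted p = 0.448). Srsf2, a splicing activator and marker of nuclear speckles, and Srsf9 overlapped between groups, and the Srsf9 log2 fold change of -0.11 was 0.16 with length and GC trends removed. DESeq2, another test run on the counts, called none of the SR protein genes either.

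Many SR protein genes hold exons with early stop codons whose inclusion lowers their own protein. The Srsf3 exon of 456 bases was included at 10.2%, 15.3% and 15.6% in het and 11.4% and 11.7% in WT. The Srsf6 exon of 268 bases stood at 8.68% to 15.9% in het and 15.8% and 18.5% in WT. The Srsf7 exon of 460 bases stood at 5.07%, 9.32% and 6.88% in het and 5.21% and 3.53% in WT. All 3 overlapped between groups, and the smallest adjusted p among them was 0.464 (limma, Srsf6). In Srsf5 the leading transcript, Srsf5-212, is annotated as a retained intron and held 49.3%, 52.4% and 55.0% of the counts in het and 44.3% and 48.5% in WT.

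Among the 20 hnRNP genes none was called by edgeR or DESeq2, and 1 on each side had an unadjusted p under 0.05. Hnrnpa2b1, which binds RNA for splicing and transport, was the most abundant gene of all 39 per length, with 475 ± 47 TPM in het (SD, n = 3) and 411 ± 15 TPM in WT (SD, n = 2). It had 531, 542 and 567 CPM in het and 505 and 568 CPM in WT, an overlap, with a log2 fold change of 0.03 (SE 0.13). Hnrnph1, whose protein binds runs of G, was the next of the hnRNP genes at 163 ± 22 TPM in het and 148 ± 28 TPM in WT. Hnrnpk, which encodes a KH-domain protein that binds runs of C, had 159 ± 16 TPM in het and 144 ± 16 TPM in WT. Hnrnpul2, a relative of Hnrnpu, had 160.0, 160.3 and 159 CPM in het and 135 and 126 CPM in WT. Its log2 fold change was 0.29 (SE 0.12, edgeR adjusted p = 0.170), and 0.07 with length and GC trends removed. Hnrnpu, a nuclear scaffold protein required for splicing in the mouse heart, had 262, 264 and 259 CPM in het and 205 and 229 CPM in WT. Its log2 fold change was 0.27 (SE 0.13, edgeR adjusted p = 0.214), and 0.05 with length and GC trends removed. Hnrnpa3 had 294, 273 and 274 CPM in het and 218 and 252 CPM in WT, with a log2 fold change of 0.25 that was 0.11 under the same removal.

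Hnrnpa0, which binds AU-rich RNA, had 88.8, 87.5 and 83.8 CPM in het and 108 and 104 CPM in WT. It lay below WT in every het library, with a log2 fold change of -0.29 (SE 0.12, edgeR adjusted p = 0.155), and -0.22 with length and GC trends removed. Hnrnpl, which binds CA repeats, had 168, 173 and 155 CPM in het and 217 and 182 CPM in WT. The groups did not overlap (log2 fold change -0.27, SE 0.13, edgeR adjusted p = 0.237), and WT 7 was the library set apart: without it the fold was -0.13. Hnrnpab, whose protein binds both RNA and DNA, had 177, 166 and 193 CPM in het and 182 and 231 CPM in WT, an overlap, and its fold of -0.21 was -0.01 without WT 8.

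Transcript structure was compared within the 39 genes next. The RSEM tables list 410 transcripts of these genes, of which 402 have a GENCODE M21 biotype. The transcript with the largest share was protein coding in 36 of the 39 genes, the others being Rbm20-201 (nonsense-mediated decay), Srsf5-212 (retained intron) and Mbnl2-205 (processed transcript). Of 117 tested transcripts in 36 genes, none was called (limma on the log2 ratio to the gene's other transcripts, adjusted p under 0.05), where 0.196% of all 19848 tested were. An unadjusted p under 0.05 was seen for 18, in 11 genes, against 10.9% of all transcripts. In 47 of the 117 every het library lay on one side of both WT libraries, against 30.6% of all transcripts. By edgeR's diffSpliceDGE, the other tool run, 0 of 115 were called and 7 had an unadjusted p under 0.05.

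The 8 transcripts with the largest difference in mean share and no overlap came from Mbnl1, Mbnl2, Ptbp1, Celf1, Srsf11 and Hnrnph3. Mbnl1-214, a coding transcript that holds the 54- and 95-base exons and lacks the 36-base exon, took 28.9%, 27.5% and 30.5% of Mbnl1 counts in het and 41.8% and 76.1% in WT. In the authors' isoform percent, which is the same share per length, it stood at 23.9%, 22.9% and 26.4% in het and 37.9% and 71.9% in WT. Mbnl1-203, which holds the 36-base exon and lacks the 54-base exon, took 19.1%, 26.4% and 17.1% in het and 7.89% and 0.521% in WT. Mbnl2-205, the transcript that skips the 95-base exon of Mbnl2, took 57.8%, 60.2% and 57.7% in het and 66.2% and 80.7% in WT. The shares of Mbnl1-214 and Mbnl1-203 enter the Mbnl1 exon inclusions given above and are no separate observation. For Mbnl1-214 and Mbnl2-205 the WT libraries lay farther from each other than the het libraries did. Without WT 7 the limma test called these 3 transcripts of Mbnl1 and Mbnl2, as well as Mbnl1-218 and Srsf11-208. WT 8 was the library farthest from the median of the 5 in 50 of the 117 transcripts (42.7%) and in 15 of 42 exons (35.7%). It was also the farthest in 38% of all 4266 exons tested.

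**Figure D4:**
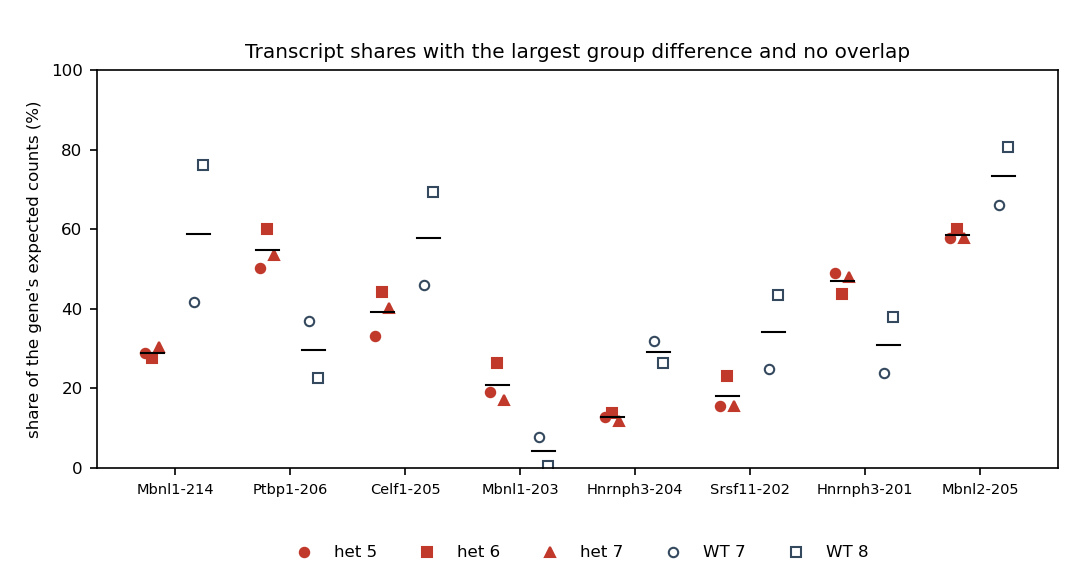
Share of the gene's expected counts in each of the 8 transcripts with the largest difference in mean and no overlap, with het libraries filled, WT libraries open and bars at group means. In Mbnl1-214 the het libraries lie between 27.5% and 30.5%, below the WT libraries at 41.8% and 76.1%.

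Ptbp1-206, a coding transcript, took 50.4%, 60.0% and 53.7% of Ptbp1 counts in het and 37.0% and 22.5% in WT (log2 ratio 1.55, SE 0.40, limma adjusted p = 0.344). In the authors' isoform percent the same transcript overlapped, at 35.2%, 51.3% and 29.5% in het and 29.5% and 17.2% in WT. Celf1-205 took 33.3%, 44.2% and 40.3% in het and 46.1% and 69.5% in WT, and its isoform percent also overlapped. Srsf11-202 took 15.5%, 23.1% and 15.6% in het and 24.8% and 43.4% in WT. The gene levels of Ptbp1, Celf1 and Srsf11 overlapped between groups.

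Hnrnph3, a member of the hnRNP H and F family, overlapped between groups in its level, at 51.7, 43.5 and 49.8 CPM in het and 47.1 and 44.6 CPM in WT. Hnrnph3-204, annotated as a target of nonsense-mediated decay, took 12.9%, 13.8% and 11.7% of its counts in het and 31.9% and 26.4% in WT. The log2 ratio differed by -1.49 (SE 0.27, limma adjusted p = 0.237), the smallest adjusted p among the 117 transcripts. The coding transcript Hnrnph3-201 took 49.1%, 43.7% and 47.9% in het and 24.0% and 38.1% in WT. Hnrnph3-201 holds a 139-base exon that Hnrnph3-204 skips, printed because its inclusion did not overlap between groups. At 2213 and 1633 bases these transcripts also differ elsewhere. Hnrnph3-202, which holds the exon too, overlapped between groups in its share. Capitals mark runs of at least 3 G, the kind of sequence that proteins of this family bind.
Hnrnph3 139-base exon: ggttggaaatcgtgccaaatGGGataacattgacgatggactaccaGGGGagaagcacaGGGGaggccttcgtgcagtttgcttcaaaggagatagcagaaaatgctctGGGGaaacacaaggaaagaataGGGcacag
It lies at chr10:63018760-63018898 on the minus strand (GENCODE M21, GRCm38), holds 5 such runs, and its length is not a multiple of 3. It was included at 83.4%, 82.3% and 84.7% in het and 63.0% and 69.1% in WT (log2 ratio 1.37, SE 0.29, limma adjusted p = 0.203). The exon was not called with any library left out, and the smallest limma adjusted p was then 0.135.

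Cassette exons were tested as 42 events in 29 of the 39 genes, of which 23 are wholly coding. None was called at a limma adjusted p under 0.05, where 0.516% of all 4266 events were. An unadjusted p under 0.05 was seen for 7 events in 7 genes, against 14.3% of all events, and 16 did not overlap between groups, against 34.3%. The smallest adjusted p, 0.0987, belonged to a 54-base exon of Hnrnpk that is not wholly coding, with 4.93%, 4.56% and 4.02% in het and 10.8% and 13.7% in WT. Its log2 ratio differed by -1.55 (SE 0.23, limma), and every het library was below both WT libraries. Without WT 7 it was called (limma adjusted p = 0.0437). A 78-base coding exon of Ptbp1 stood at 36.3%, 27.2% and 35.1% in het and 43.2% and 51.0% in WT (limma adjusted p = 0.348).

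Shares of annotated retained-intron transcripts were tested for 19 of the 39 genes and shares of nonsense-mediated decay transcripts for 17, each against the gene's coding transcripts. None was called. For retained introns 1 of the 19, Hnrnpul2, had an unadjusted p under 0.05 (limma), against 11.6% of all genes tested. Its share was at most 1.83% in any library. For decay transcripts 2 of the 17, Hnrnph3 and Rbm20, had one, against 8.62% of all genes. The highest retained-intron share was in Srsf5, at 56.1%, 59.2% and 63.0% in het and 51.7% and 54.6% in WT (limma adjusted p = 0.603).

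Fold changes were higher in longer genes, among the 39 as among all genes. Across the 39 genes Pearson's r between log2 effective length and log2 fold change was 0.40 and Spearman's rho 0.45. Across all 16412 genes they were 0.23 and 0.45. These are relations across genes measured in the same 5 libraries, and genes are not independent replicates. The 13 longest genes, from 2368 bases of effective length up, had a median log2 fold change of 0.22, with 7 entirely above WT. The 13 shortest, up to 1539 bases, had 0.03, with 3 entirely above WT. With length and GC trends removed the median of the 39 genes was 0.05, and 2 of the 39 had an unadjusted p under 0.05. Rbfox1, with an effective length of 1658 bases, is the shortest of the 9 tissue regulators.

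**Figure D5:**
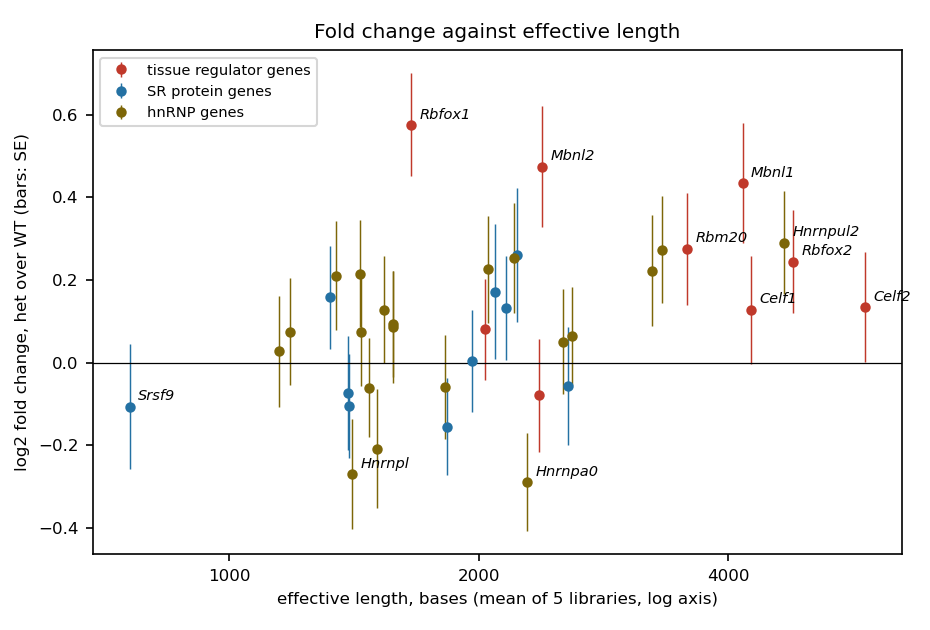
Log2 fold change of het over WT (edgeR, bars are SE) against effective length on a log axis for the 39 genes, coloured by role. The longest genes lie mostly above 0, with Rbfox1 at 0.58 in the left part of the plot.

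Genes around these regulators were counted in lists of the splicing machinery, to be read against the 2.99% of all genes that were called higher and the 2.66% called lower. Of 65 core spliceosome genes tested, 1 rose and 2 fell, those that fell being Sf3b5 (log2 fold change -0.56), a subunit of the SF3b complex, and U2af1l4 (-0.58), a relative of the 3' splice site factor U2AF. The list's median was -0.07. Of 10 kinases that act on SR proteins, Prpf4b rose (0.51) and none fell, with 76.6, 82.4 and 81.2 CPM in het and 54.4 and 57.8 CPM in WT. The kinases' median was 0.11. Of 56 other splicing factors tested, out of 60 listed, Scaf11 rose (0.45) and none fell (median 0.09). The 4 genes named here had edgeR adjusted p-values between 0.0352 and 0.0481. Removing length and GC trends left no call among these genes or the heart targets below. The log2 fold changes were then 0.21 for Prpf4b, 0.15 for Scaf11, -0.26 for U2af1l4 and -0.78 for Sf3b5. Sf3b5 thus lay lower than before, while the log2 fold changes of Prpf4b, Scaf11 and U2af1l4 became smaller in size. Leaving out het 5, het 6 or het 7 left no call either, while 3 were higher and 0 lower without WT 7, and 6 higher and 2 lower without WT 8.

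Among 30 genes whose exons these regulators are known to choose in heart, 3 rose and 1 fell, with a median log2 fold change of 0.13, where 2.99% of all genes were called higher and 2.66% lower. Ryr2, the calcium release channel gene, had 1951, 2002 and 1921 CPM in het and 1241 and 1185 CPM in WT (log2 fold change 0.69, SE 0.14). Tead1, a transcription factor gene, rose with a log2 fold change of 0.53 (SE 0.14). Tpm1, a tropomyosin gene, fell, with a log2 fold change of -0.69 (SE 0.15). The edgeR adjusted p ran from 0.0270 to 0.0444 over these 3. The summed level of atrial cardiomyocyte markers also differed between the groups, at 58965 to 65768 CPM in het and 83587 to 83774 CPM in WT, and its part was not tested. Ryr2 is itself among those 8 markers, of which 1 was called higher and 2 lower.

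Exon and transcript choice in those 30 genes gave no call. Of 79 tested transcripts 16 had an unadjusted p under 0.05 (limma), against 10.9% of all transcripts. Of 77 cassette exons 11 did, against 14.3% of all exons tested. Fn1-202, a retained-intron transcript of fibronectin, took 25.4%, 30.1% and 27.8% of Fn1 counts in het and 37.9% and 67.9% in WT. Cacna1c, the L-type calcium channel gene, has a pair of neighbouring 60-base exons. The more used of them stood at 91.96%, 93.0% and 92.1% in het and 96.5% and 96.4% in WT, and its neighbour at 7.84%, 7.77% and 8.28% in het and 3.66% and 4.45% in WT. Their limma adjusted p-values were 0.152, the smallest of the 77 exons, and 0.203. A 24-base exon of Ryr2 stood at 12.9%, 14.9% and 14.6% in het and 11.99% and 5.11% in WT, with a limma adjusted p of 0.401.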

How the data were processed

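Stranded polyA libraries were processed by the authors. Per the submitters' processing notes the tools were STAR and RSEM, SAMtools, edgeR and limma, Trim Galore, MultiQC and FastQC, on GRCm39, with neither version nor role. The deposited RSEM tables hold, per the file headers, expected counts, TPM, effective lengths (other values, in bases) and isoform percent. The authors' deposited table holds log2 fold changes, moderated t scores and p-values.

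Expected counts were rounded, filtered with edgeR's default filter, TMM-scaled and put through its robust quasi-likelihood test, and p-values were adjusted over all genes tested (Benjamini-Hochberg, 0.05). CPM are TMM-scaled. The biological coefficient of variation was 0.18. Length and GC trends per library were fitted with mgcv and entered as offsets. Transcripts (gene mean of at least 50 counts and 10 in each library, share of 5% to 95%), biotype classes and cassette exons of at most 500 bases were tested with limma on log2 count ratios, pseudocount 0.5. RSEM assigns reads to transcripts by a model, so shares are estimates, and short exons rest on few reads. Biotypes, exons and sequences are from GENCODE M21 (GRCm38), matched by transcript ID for 91.9% of transcripts, because the files' build was not used here for coordinates.

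Members, lists, tests and naming rules were chosen with earlier results of these data known. Named were the tissue regulators, the most abundant and lowest-p SR and hnRNP genes, called listed genes (some are not reported here), and transcripts with the largest separated difference. Class shares, cassette exons and the printed exons were chosen after values were seen. Alternatives were other scalings, filters, pseudocounts and tools (DESeq2, limma-voom), trends removed, and each library left out. Code was tested on simulated data. Software was edgeR 4.0.16, DESeq2 1.42.0, limma 3.58.1 and mgcv 1.9.3 in R 4.3.3.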

Additional observations from a re-analysis of the deposited data

How the results depend on the processing

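No paired analysis was possible because the labels give no pairing of het with WT animals. Rbfox1 was the 1 member called higher; library size alone and DESeq2 each called 2 (Rbfox1 and Mbnl2), testing every gene with at least 1 count 3 (with Mbnl1), and log2(TPM + 1), log2(TPM + 0.1), the length trend removed, and length and GC trends removed each called 0. Leaving out each library gave 0 to 4, the 4 without WT 8. The count of members called lower was 0 under every alternative run. Of the listed splicing genes 6 were higher: 10 with library size alone, 13 with every gene, 12 with DESeq2, 0 with log2(TPM + 1), 2 with log2(TPM + 0.1), 1 with length and 0 with length and GC removed, and 0 to 6 with each library left out. Of the listed genes 3 were lower: 6 with every gene, 5 with a mean of at least 5 CPM, 10 with DESeq2, 1 with voom quality weights, 0 with either TPM scale or either trend removed, and 0 to 2 with each library left out. For transcript shares, leaving out each library gave 0 to 3 higher and 0 to 2 lower, and for cassette exons 0 to 2 higher and 0 to 4 lower; every such call came without WT 7. Fits without a WT library assume that the lone WT library varies like het. Among named genes 23 values changed sign, none of them called. With the length trend removed these were Celf1 (-0.073), Celf2 (-0.12), Srsf5 (0.017) and Srsf9 (0.098), and with length and GC trends removed Celf1 (-0.14), Celf2 (-0.21) and Srsf9 (0.16). On log2(TPM + 1) and log2(TPM + 0.1) they were Rbm24 (0.094 and 0.095), Srsf2 (0.059 and 0.060), Srsf5 (0.0035 on both) and Srsf9 (0.070 and 0.073), and with upper-quartile scaling Hnrnpa2b1 (-0.016). With each library left out the log2 fold change ran from -0.0033 to 0.30 for Celf2, -0.0036 to 0.60 for Srsf10, -0.038 to 0.43 for Srsf3, -0.053 to 0.13 for Hnrnpa2b1 and -0.042 to 0.24 for Hnrnpk, each negative without WT 7. It ran from -0.16 to 0.023 for Rbm24, positive without WT 8, and from -0.12 to 0.0050 for Srsf5, positive without het 7. The causes were not tested. Of the named genes' other values under alternatives, 463 kept direction and side of the threshold, 85 lost and 7 gained a call. Depth limits the exon shares, and the Rbfox1 exon pair rests on a mean of 599 expected counts, which leave out a large transcript without a GENCODE M21 match.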
